A study of Mus musculus with 5 samples.

Results

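The genes described here are 10 markers of the cells that build the retinal blood vessels: Cldn5, Pecam1, Cdh5, Kdr, Flt1, Tek, Vwf and Esam for endothelial cells, and Pdgfrb and Rgs5 for pericytes. They were chosen by symbol from the count table, which holds 33636 rows, and each of the 10 symbols had a single row. RNA came from whole retinas of wild-type male C57BL/6J mice at postnatal day 42. A diffuser goggle had covered the right eye from day 28, for 2 weeks of form deprivation, a treatment that makes the growing eye relatively myopic (form-deprivation myopia, FDM), while the uncovered left eye of the same animal was the control. The table held 2 FDM and 3 control libraries, with refractive errors at day 42 of 0.976 and 0.2745 D in the FDM eyes and of 2.4455, 3.1505 and 2.465 D in the control eyes. FDM 1 and Control 1 are eyes of one mouse and FDM 3 and Control 3 of another, by the numbers of the count table, and Control 2 has no partner because the authors left out the other FDM library for its read duplication. The sample labels give the number 2 to the library called FDM 3 here. All samples are whole retina from a single strain and sex, and in such bulk tissue fewer vascular cells and less RNA per vascular cell cannot be told apart.

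Retinal capillaries consist of an endothelial tube wrapped by pericytes. The endothelial cells are sealed to each other by tight junctions, of which Cldn5 is a main component, and by adherens junctions built on VE-cadherin, the product of Cdh5, which together form the inner blood-retina barrier. Their growth and survival depend on VEGF, sensed by Kdr and buffered by the decoy receptor Flt1, and on angiopoietins, sensed by Tek. Pericytes are recruited by endothelial PDGF-B, for which Pdgfrb is the receptor. The same gene products occur in other vessels, and Kdr is also known from retinal neurons, so that their RNA in whole retina need not be vascular alone.

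None of the 10 genes (0) differed between FDM and control eyes at the unadjusted p of 0.05 that the study uses, in edgeR's quasi-likelihood test of the counts. Of all 17432 genes tested, 1.61% passed this threshold and none (0) passed after adjustment. DESeq2's Wald test also called 0 of the 10, beside 0.987% of all genes. The fitted log2 fold changes, FDM minus control, lay between -0.05 for Cdh5 and 0.16 for Pdgfrb, with 7 above and 3 below 0. Their median was 0.06, beside -0.01 over all genes tested. The largest difference seen for several of the 10 was not between FDM and control eyes but among the control eyes, where Cldn5 spanned a 1.56-fold range.

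For 5 of the genes, Cldn5, Kdr, Flt1, Tek and Rgs5, RefSeq's promoter table for GRCm38.p6 holds the sequence around the start. The 250 bases upstream of the start are printed for the VEGF receptor genes, since Flt1 and Kdr carried more counts than any other of the 10 in every library. The letters AGGAAG, a form of the core that ETS factors recognise, and TATAAA, the TATA box, were searched on both strands and are in capitals. The sequences run 5′ to 3′ on the minus strand of chr5:147726012-147726261 for Flt1 and of chr5:75978456-75978705 for Kdr.
Flt1: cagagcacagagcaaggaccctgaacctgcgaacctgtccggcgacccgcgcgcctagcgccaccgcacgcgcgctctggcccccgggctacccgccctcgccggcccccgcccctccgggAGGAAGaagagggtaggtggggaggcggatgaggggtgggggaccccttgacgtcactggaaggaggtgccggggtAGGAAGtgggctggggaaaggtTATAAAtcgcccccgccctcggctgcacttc
Kdr: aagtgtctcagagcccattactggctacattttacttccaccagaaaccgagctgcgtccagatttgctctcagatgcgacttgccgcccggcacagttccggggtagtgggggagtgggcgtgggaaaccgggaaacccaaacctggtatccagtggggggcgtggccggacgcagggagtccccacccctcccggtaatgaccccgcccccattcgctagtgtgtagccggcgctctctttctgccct
AGGAAG occurred 2 times and TATAAA 1 time before Flt1, while neither was found before Kdr, Cldn5, Tek or Rgs5. Of the 32851 windows of this length in the table, 29.5% hold AGGAAG and 12.4% hold TATAAA. The Flt1 window had a GC content of 70.4%, against 61.6% for Kdr and 51.2% for Tek. A match describes these letters only and was not tested for binding.

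All 10 genes passed the count filter, more than 10 counts in at least 2 libraries, and each had at least 272 counts in every library. This depth places all of them far above the level of 3 counts, which lay between 0.0526 and 0.0751 CPM (counts per 1e6, scaled to the library total and its TMM factor). Because longer transcripts gather more reads, levels were compared between genes only after division by the length of the annotated exons. On this scale Kdr stood highest, at 19.8 ± 2.09 CPM per kb (SD, n = 5). Rgs5 followed with 13.4 ± 1.0 CPM per kb, Cldn5 with 9.82 ± 1.6, Flt1 with 7.07 ± 0.133 and Esam with 6.2 ± 0.161. Pdgfrb had 3.58 ± 0.54 and Pecam1 2.53 ± 0.248 CPM per kb. At the low end were Tek with 1.72 ± 0.0447, Cdh5 with 1.57 ± 0.105 and Vwf with 0.918 ± 0.127 CPM per kb. The ranges over the 5 libraries of neighbours in this order did not meet except for Tek, from 1.67 to 1.79, and Cdh5, from 1.48 to 1.74 CPM per kb. Where the longest annotated transcript was used as the length, Kdr at 30.2 and Rgs5 at 14.8 CPM per kb kept the first places, but Flt1 at 13.8 stood above Cldn5 at 9.82, Pecam1 at 4.58 above Pdgfrb at 3.62, and Vwf at 1.67 above Cdh5 at 1.65. The order of these neighbours therefore depends on the length chosen.

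**Figure D1:**
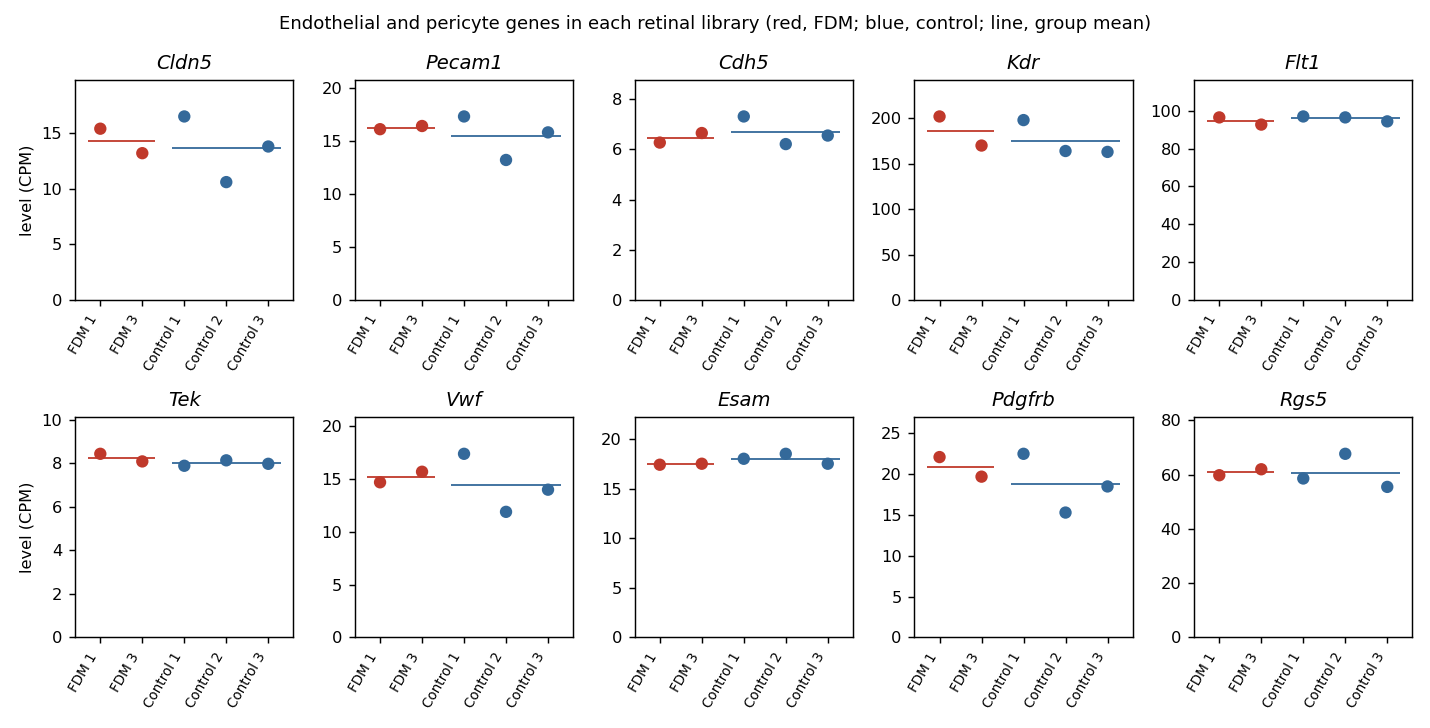
Level of each of the 10 genes in CPM (y axis, from 0) in the 5 libraries (x axis). Red points are FDM and blue points control eyes, and lines are group means; Flt1, Tek and Esam are nearly level across libraries, while Cldn5, Pdgfrb and Vwf are lowest in Control 2 and highest in Control 1.

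The first group of genes holds endothelial cells together. Cldn5, on chromosome 16 of GRCm38 from 18776847 to 18778262, encodes the tight junction protein claudin 5. It reached 15.4 CPM in FDM 1 and 13.2 CPM in FDM 3, against 16.5, 10.6 and 13.8 CPM in Control 1, 2 and 3. Both FDM libraries lay inside the range of the controls, whose highest and lowest were Control 1 and Control 2. FDM eyes averaged 14.3 ± 1.5 CPM (SD, n = 2) and control eyes 13.6 ± 2.97 CPM (SD, n = 3). The fitted log2 fold change was 0.07 (standard error 0.18, 95% interval -0.36 to 0.50, unadjusted p = 0.712 from edgeR).

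Cdh5, which encodes the adherens junction protein VE-cadherin (chromosome 8, 104101625 to 104144511), had 6.27 and 6.65 CPM in FDM 1 and FDM 3 and 7.31, 6.21 and 6.55 CPM in Control 1, 2 and 3. It was the least counted of the 10, with 272 to 354 counts per library, and the groups overlapped. The fitted log2 fold change of -0.05 (standard error 0.12) had a 95% interval from -0.34 to 0.24. Esam, an adhesion molecule of endothelial tight junctions (chromosome 9, 37528078 to 37538319), gave 17.4 and 17.5 CPM for the FDM libraries and 18.0, 18.5 and 17.5 CPM for Control 1, 2 and 3. Esam was the only one of the 10 whose FDM libraries both lay below all 3 controls, and none of the 10 (0) lay above them. Of all genes tested, 6.67% lay below and 3.97% above, together 10.6%. The gap between FDM 3 and Control 3 was -0.0045 on the log2 scale, and the log2 fold change between the groups was -0.04 (standard error 0.09, 95% interval -0.24 to 0.15). Scaled by library totals alone, by the authors' factors or with the GC offsets described below, the groups of Esam overlapped as well.

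Pecam1 (chromosome 11, 106654217 to 106750628) encodes CD31, which joins endothelial cells to each other and is also found on platelets and leukocytes. FDM 1 had 16.1 and FDM 3 16.4 CPM, while the controls had 17.3, 13.2 and 15.8 CPM in the order of their numbers. The FDM values had an SD of 0.182 CPM (n = 2) and lay between Control 1 and Control 2. Between the groups the log2 fold change was 0.08 (standard error 0.13, 95% interval -0.22 to 0.38). Vwf (chromosome 6, 125546774 to 125686679), whose product binds platelets and is stored in endothelial granules, stood at 14.7 and 15.7 CPM in the FDM libraries and at 17.4, 11.9 and 14 CPM in the control libraries, by their numbers. As for Pecam1, the FDM libraries fell between the extremes of the controls, and the log2 fold change was 0.08 (standard error 0.16, 95% interval -0.30 to 0.45). Its sign was not stable, since it was -0.09 with the authors' factors, which vary between genes, in place of the TMM factor. Vwf has 11 annotated transcripts and its Control 1 value exceeded Control 2 by 0.55 on the log2 scale in CPM but by 0.18 in the authors' normalized counts.

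The second group comprises the receptors. Kdr, the main signalling receptor for VEGF-A (chromosome 5, 75932827 to 75978458), was counted 8742 and 8184 times in FDM 1 and FDM 3 and 7886, 9337 and 7730 times in the controls. Scaled to CPM, the FDM libraries had 202 and 170, and Control 1, 2 and 3 had 198, 164 and 163. The eyes of the first mouse were the highest and the remaining 3 libraries lay close together, so that the groups overlapped. FDM eyes had 186 ± 22.3 CPM (SD, n = 2), control eyes had 175 ± 19.8 CPM (SD, n = 3), and the log2 fold change was 0.09 (standard error 0.12, 95% interval -0.20 to 0.38).

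Flt1, the high-affinity VEGF receptor that also exists as a soluble decoy (chromosome 5, 147561604 to 147726011), was the steadiest of the 10. The FDM libraries had 96.5 and 92.7 CPM and the 3 controls 97.0, 96.5 and 94.4 CPM, a coefficient of variation of 1.89% over all 5 libraries. Of the 10577 tested genes whose mean level lay within the range of the 10, from 6.6 to 179 CPM, 1.4% varied less than Flt1. Levels were not matched more closely than this range. The 10 genes together had a median coefficient of variation of 8.66%, against 7.09% over the 10577 genes. For Flt1, the difference between the groups was -0.02 on the log2 scale (standard error 0.08), with a 95% interval from -0.20 to 0.16, or 0.869-fold to 1.12-fold. The ratio of Flt1 to Kdr was 0.479 and 0.491 in the FDM and control eye of the first mouse, 0.545 and 0.580 in those of the mouse numbered 3, and 0.589 in Control 2. The first mouse thus had the lowest ratio, and the highest Kdr level, in both eyes.

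Tek encodes Tie2, the receptor for angiopoietins (chromosome 4, 94739289 to 94874976). From 315 to 464 counts per library, it had 8.44 and 8.09 CPM in the FDM eyes and 7.89, 8.14 and 7.98 CPM in Control 1, 2 and 3. The 5 values spanned a 1.07-fold range, and FDM 3 lay below Control 2. A log2 fold change of 0.05 (standard error 0.10, 95% interval -0.20 to 0.29) was fitted.

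The pericyte genes were Pdgfrb and Rgs5. Pdgfrb, the PDGF-B receptor (chromosome 18, 61045150 to 61085061), measured 22.1 and 19.7 CPM in the FDM libraries against 22.5, 15.3 and 18.5 CPM in the 3 controls. The FDM libraries lay above Control 2 and Control 3 and below Control 1. It had the highest fold change of the 10, 0.16 on the log2 scale (standard error 0.16, 95% interval -0.22 to 0.54, unadjusted p = 0.357 from edgeR). The value depended on single libraries, at 0.04 without Control 2, 0.07 without FDM 1 and 0.03 with the mouse as a block. Omitting Control 1 raised it to 0.31, which passed the threshold before adjustment but not after it (edgeR's quasi-likelihood test, unadjusted p = 0.0476 and Benjamini-Hochberg adjusted p = 0.829). No other omission of a single library brought any of the 10 past it, and 5.45% of all genes passed in that fit.

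Rgs5 encodes a regulator of G-protein signalling that is abundant in pericytes (chromosome 1, 169655501 to 169695813). Its 2591 to 3858 counts per library corresponded to 59.8 and 62.0 CPM in FDM eyes and to 58.6, 67.7 and 55.5 CPM in the controls, in the order of their numbers. Here Control 2 was the highest library, the reverse of its place for Pdgfrb, and the FDM libraries stood between the controls. The log2 fold change was 0.01 (standard error 0.10, 95% interval -0.24 to 0.25). Rgs5 divided by Pdgfrb was 2.70 and 3.15 in FDM eyes, 4.43 in Control 2 and 2.60 and 3 in Control 1 and Control 3, and in the authors' normalized counts Control 2 also stood apart, at 4.25 against 2.54 to 3.22. Summed, the 2 pericyte genes made up 81.92 and 81.65 CPM in FDM 1 and FDM 3 and 81.1, 82.94 and 74 CPM in Control 1, 2 and 3, and the 8 endothelial genes 376.5, 340.5, 378.9, 328.8 and 332.9 CPM in the same order. The pericyte sum divided by the endothelial sum was 0.218 and 0.240 in FDM and 0.214, 0.252 and 0.222 in control eyes. The FDM values lay inside the range of the controls. These sums are not divided by length and weigh the most counted genes most. Kdr alone gave 202 of the 376.5 endothelial CPM in FDM 1 and 164 of the 328.8 in Control 2.

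**Figure D2:**
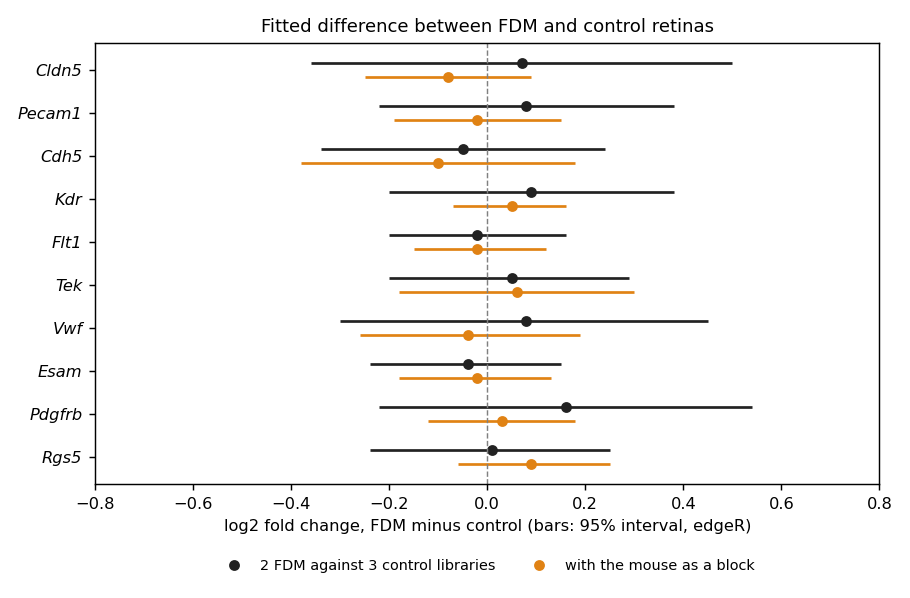
Fitted log2 fold change of each gene (x axis, FDM minus control) with its 95% interval from edgeR, without (black) and with (orange) the mouse as a block. Every interval includes 0; without the block the outermost bounds are -0.36 for Cldn5 and 0.54 for Pdgfrb.

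The intervals differed in width between the genes. For Flt1 and Esam the upper bounds were 1.12-fold and 1.11-fold, while for Pdgfrb and Cldn5 they reached 1.45-fold and 1.42-fold. The lowest of the lower bounds was 0.778-fold, for Cldn5.

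The eyes of one animal allow a comparison within mice, given first as differences with no test. In the first mouse, the FDM eye minus the control eye ran from -0.25 for Vwf to 0.10 for Tek on the log2 CPM scale. In the mouse numbered 3, the differences ran from -0.06 for Cldn5 to 0.17 for Vwf. For 3 genes, Kdr, Tek and Rgs5, the FDM eye was higher in both mice, for 3, Cldn5, Flt1 and Esam, it was lower in both, and for 4, Pecam1, Cdh5, Vwf and Pdgfrb, the mice differed in sign. Some of these signs depended on the scaling. In the authors' normalized counts Flt1 was at 0.04 in the first mouse and -0.04 in the other, and Esam at 0.03 and 0.01. On the CPM scale, 24.7% of all genes tested were higher in both mice, 30.3% lower in both and 44.9% opposite. The median over the 10 genes was -0.03 in the first mouse and 0.04 in the other. Vwf, with -0.25 and 0.17, was the gene for which the mice were furthest apart, and Rgs5, with 0.03 and 0.16, had the highest difference of the genes raised in both. A fit with each mouse as a block, in which Control 2 carries no weight for want of a partner, called 0 of the 10 genes at the unadjusted threshold and 7.23% of all genes. After adjustment it called 0 of the 10 and 0.31% of all genes. The values in this fit ran from -0.10 for Cdh5 to 0.09 for Rgs5, and those of Cldn5, Pecam1 and Vwf turned to -0.08, -0.02 and -0.04.

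The spread among the control eyes was uneven over the 10 genes. From the lowest to the highest control, Cldn5 spanned 1.56-fold, Pdgfrb 1.48-fold, Vwf 1.46-fold and Pecam1 1.31-fold, while Esam spanned 1.06-fold and Flt1 and Tek 1.03-fold each. Control 2 was the lowest of the 5 libraries for Cldn5, Pecam1, Cdh5, Vwf and Pdgfrb and the highest for Esam and Rgs5, and Control 1 was the highest for the first 5 of these. Averaged over the 10 genes, the absolute difference between Control 1 and Control 2 was 0.295 on the log2 scale, the largest of the 10 pairs of libraries. FDM 1 and Control 1 differed by 0.0903, and FDM 3 and Control 3 by 0.0664, the smallest. Over all tested genes above 10 CPM, the median difference was also largest between Control 1 and Control 2, at 0.194.

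Control 2 held the most counts, 56534931, and Control 1 the fewest, 40599047. The difference between these 2 libraries also moved with base composition. For the 10598 genes above 10 CPM, it was 0.27 on the log2 scale (median) in the quartile with the lowest GC content of the longest transcript, from 31.0% to 44.7%, and -0.23 in the quartile with the highest, from 54.5% to 70.7%. Across genes, which share both libraries and are not independent, the Spearman correlation was -0.706, and -0.653 in the authors' normalized counts. Among the 10 genes, Rgs5 had the lowest GC content, 41.1%, and a difference of 0.21, and Cldn5 the highest, 60.5%, with -0.64. Pdgfrb at 54.9% GC had -0.56 and Esam at 53.7% had 0.04, so that genes of like GC content also differed.

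**Figure D3:**
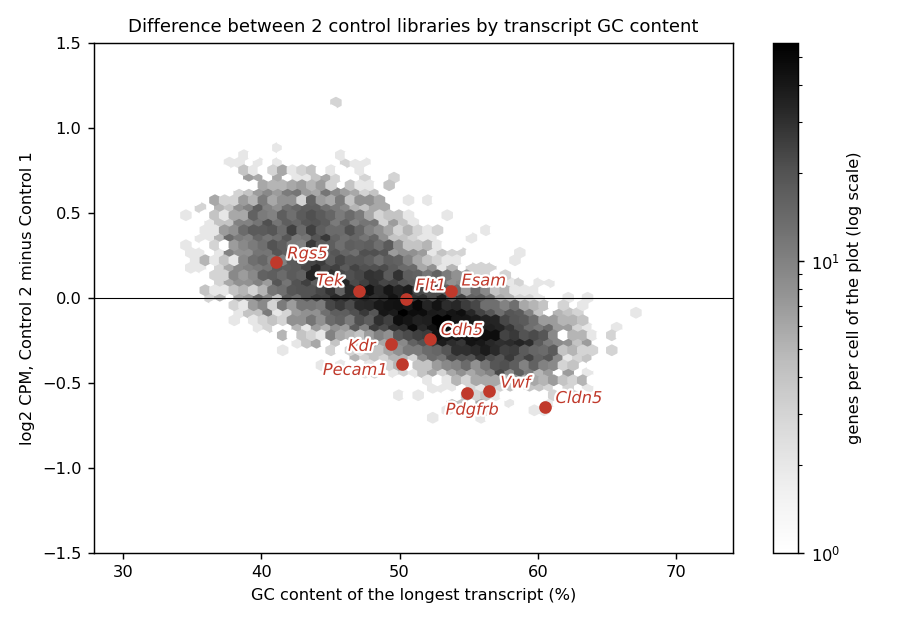
Control 2 minus Control 1 in log2 CPM (y axis) against the GC content of the longest transcript in percent (x axis) for the 10598 genes above 10 CPM (grey, darker where more genes fall; 41 genes beyond 1.5 are not drawn), with the 10 endothelial and pericyte genes in red. The cloud falls from left to right, and Cldn5, Vwf and Pdgfrb lie near its lower edge.

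When the trend of each library with GC content was removed by offsets, a step chosen after the data had been seen, the range of the controls narrowed to 1.29-fold for Cldn5, 1.3-fold for Pdgfrb, 1.25-fold for Vwf and 1.11-fold for Rgs5. For Pecam1 it went from 1.31-fold to 1.29-fold, for Kdr it was 1.21-fold in both cases, and it widened to 1.14-fold for Esam. Control 2 was then no longer the highest library for Rgs5, at 59.7 CPM against 62.8 CPM in FDM 3 and Control 1. For Pdgfrb it stayed the lowest, at 16.4 CPM. The log2 fold changes between FDM and control eyes then lay between -0.06 for Esam and 0.15 for Pdgfrb. With these offsets 0 of the 10 passed the unadjusted threshold, beside 1.8% of all genes. The parts of depth and base composition in the remaining spread were not tested.

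The other genes of the vessel wall came from 8 lists with 85 genes, of which 83 passed the count filter. None of the 83 (0) had an unadjusted p under 0.05 in edgeR, beside 1.61% of all genes tested. DESeq2 called 1, Nid2, or 1.2% of the 83, beside 0.987% of all genes. Without Control 1 the count was 13, 15.7% of the 83, beside 5.45% of all genes, and 9 of these were higher and 4 lower in FDM eyes. None of the 13 passed adjustment, with the smallest adjusted p, 0.14, for Nid2. In the fit by mouse the count was 4, or 4.82%, below the 7.23% over all genes. These were Tjp1, Vtn, Des and Nid2, and Benjamini-Hochberg adjustment left none of them.

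Among 20 further endothelial genes, the median log2 fold change was -0.01 and the values ran from -0.46 to 0.18. The highest counts belonged to Podxl, a sialomucin of the luminal surface that other cells also make, with 217 ± 27.6 CPM (SD, n = 2) in FDM and 210 ± 38.9 CPM (SD, n = 3) in control eyes, to S1pr1, a receptor for sphingosine 1-phosphate, at 37.0 ± 5.2 and 35.9 ± 3.98 CPM, and to Ptprb, the phosphatase that restrains Tie2, at 16.7 ± 0.676 and 17.1 ± 2.08 CPM. The lowest value, -0.46, was that of Clec14a (unadjusted p = 0.0732 from edgeR). It had 59 counts in either FDM library and 56, 113 and 92 in the controls. In CPM these were 1.36 and 1.23 against 1.4, 1.98 and 1.94, so that both FDM libraries lay below all controls.

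The 14 barrier genes had a median of -0.07 and a range from -0.15 to 0.15. Slc2a1, the glucose transporter GLUT1, which other retinal cells express too, stood at 213 ± 1.36 CPM in FDM and 229 ± 10.4 in control eyes, and Slc16a1, a lactate transporter, at 197 ± 19 and 217 ± 38.3 CPM. Tjp1, the junction scaffold ZO-1, gave 0.07 on the log2 scale (standard error 0.10). In the block fit Tjp1 was 0.14 (unadjusted p = 0.0377 from edgeR).

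The 6 genes of Norrin and Wnt signalling, which induces and maintains the barrier, ranged from -0.15 for Ndp, the ligand, to 0.05. Its receptor Fzd4 had 23.5 ± 0.271 CPM in FDM and 24.8 ± 4.16 in control eyes, and the co-receptor Lrp5 16.4 ± 0.775 and 16.3 ± 1.25 CPM. Apcdd1, a target and inhibitor of Wnt signalling, had a log2 fold change of 0.05. None of the 6 (0) passed the threshold.

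Of the 17 ligands and co-receptors, 15 were tested, and Esm1 and Aplnr were too low. Vegfa, the ligand of Kdr and Flt1, had 183 and 195 CPM in FDM eyes and 184, 191 and 170 CPM in the controls, and a log2 fold change of 0.06 was fitted (standard error 0.09). Vegfb was at -0.01 and the co-receptor Nrp2 at -0.08. Pdgfb, the ligand of Pdgfrb, was counted 216 and 243 times in FDM eyes and 190, 218 and 196 times in the controls, and is named here after its values were seen. Both FDM libraries of Pdgfb lay above all controls, at 5.02 ± 0.0494 against 4.24 ± 0.477 CPM, and its log2 fold change of 0.25 (standard error 0.14) did not pass the threshold (unadjusted p = 0.126 from edgeR). Non-overlap with FDM higher was found for 3.97% of all genes. Over the 8 lists, 7 of the 83 genes had groups that did not overlap, beside 10.6% of all genes tested. Apart from Pdgfb these were Cd34, Clec14a, Slc2a1, Ndp, Nrp2 and Angpt1. All of them lay below the controls, as did 6.67% of all genes.

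The 12 further mural genes had a median of -0.05. Vtn, the matrix glycoprotein vitronectin, stood at 890 ± 11.6 CPM in FDM and 920 ± 102 in control eyes. At 803 to 992 CPM per library, it made up most of the list's sum of 858 to 1060 CPM. Which retinal cells the Vtn RNA came from was not tested. Cox4i2 stood at 17.3 ± 1.93 and 17.9 ± 1.14, and Notch3 at 11.3 ± 0.101 and 11.3 ± 2.32 CPM. The lowest value, -0.90, was that of Des, desmin, which is made in pericytes and in muscle and had 319 counts in Control 3 and 74 to 105 in each of the other 4 libraries. Of 5 skeletal muscle markers the sum was also highest in Control 3, at 47.1 CPM against 9.07 to 10.5 in the other libraries; its part in the Des value was not tested. The 6 smooth muscle genes ran from -0.07 to 0.53, with Mylk at 0.12, Lmod1 at 0.11 and Tagln at -0.02. The value of 0.53 (standard error 0.6) was that of Cnn1, with only 7 and 12 counts in FDM eyes and 2, 13 and 6 in the controls.

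The 8 basement membrane genes had the highest median of the lists, 0.14. Collagen IV genes Col4a1 and Col4a2, the main network of the vessel's basement membrane, had log2 fold changes of 0.16 (standard error 0.11) and 0.11 (standard error 0.16), and Sparc, a matrix glycoprotein, was at -0.11. Nid2, the linker protein nidogen 2, went the other way, counted 57 and 82 times in FDM eyes and 53, 208 and 194 times in the controls. Control 1, at 1.33 CPM, lay between FDM 1 at 1.31 and FDM 3 at 1.7 CPM, so that the groups overlapped. The log2 fold change of -1.01 (standard error 0.45) had an unadjusted p of 0.0573 from edgeR. The sum of 7 markers of the retinal pigment epithelium was also highest in Control 2 and Control 3. It was 262 and 225 CPM there, against 58.2 to 78.0 CPM in the other libraries. Its part in the Nid2 value was not tested.

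**Figure D4:**
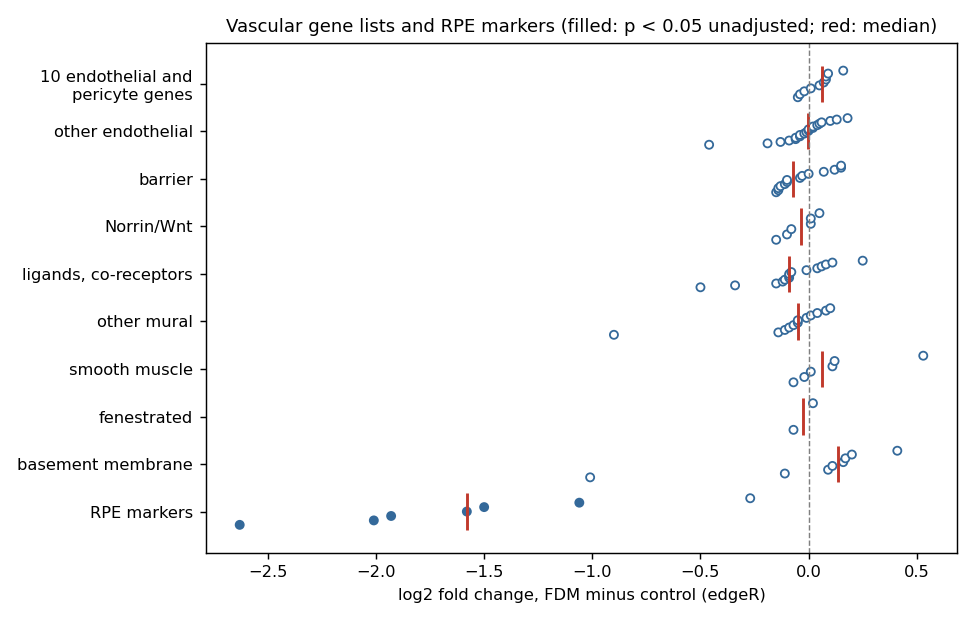
Log2 fold change, FDM minus control (x axis), of each tested gene of the vascular lists and of the retinal pigment epithelium (RPE) markers (y axis). Filled points passed the unadjusted threshold and red bars are medians; the vascular medians lie between -0.09 and 0.14, while 6 of the 7 RPE markers passed, with a median of -1.58.

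Markers of neighbouring tissues differed more between the libraries than the sum of the 10 genes, and their part in the levels of the 10 was not tested. The summed level of 7 markers of the retinal pigment epithelium, the layer between retina and choroid, was 71.5 and 58.2 CPM in FDM eyes, 78.0 CPM in Control 1, and 262 and 225 CPM in Control 2 and Control 3. All 7 were detected, and 6 were lower in FDM eyes at the unadjusted threshold, which 1.16% of all genes passed as lower and 0.453% as higher. After adjustment 0 of the 7 passed. In the first mouse, the FDM eye minus the control eye ran from -0.94 for Kcnj13 to 0.12 for Best1 on the log2 scale. In the mouse numbered 3 it ran from -2.79 for Kcnj13 to -0.69 for Best1. The sum of the 10 endothelial and pericyte genes was 458 and 422 CPM in FDM eyes and 460, 412 and 407 CPM in the controls. Plvap and Car4, which mark the fenestrated capillaries of the choroid, summed to 7.57 and 7.63 CPM in FDM and to 8.01, 6.03 and 8.57 CPM in control eyes, and their fold changes were 0.02 and -0.07. Plvap had 286 to 358 counts in each library.

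Melanocyte markers (5 genes) summed to 19.2 and 24.9 CPM in FDM and to 16.2, 41.5 and 131 CPM in control eyes, and fibroblast markers (6 genes) to 8.28 and 14.4 CPM and to 10.2, 20.5 and 30.8 CPM. None of either list (0) passed the threshold, but in the fit by mouse 3 melanocyte and 4 fibroblast markers passed as lower in FDM eyes, beside 7.23% of all genes. Of these, Dcn also passed adjustment, at -2.24 on the log2 scale (edgeR's quasi-likelihood test, adjusted p = 0.00582). Lens markers (7 genes of the 8 listed) summed to 1840 CPM in FDM 3 but to 2.84 CPM in FDM 1, beside 2.83, 17.4 and 10.5 CPM in Control 1, 2 and 3. All 7 passed the unadjusted threshold as higher in FDM, a call that rests on FDM 3. Without FDM 3, the log2 fold changes of the 10 vascular genes ran from -0.09 for Cdh5 to 0.24 for Pdgfrb. Kdr was then at 0.21, Cldn5 at 0.17, Flt1 at 0.01 and Rgs5 at -0.02. Red blood cell genes (5) summed to between 33.0 and 47.6 CPM, with the lowest value in FDM 3, and microglial genes (6) to between 24.2 and 31.3 CPM. Of the retinal markers, Sag, which encodes the arrestin of photoreceptors, had 198621 to 271931 counts per library.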

How the data were processed

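Retinal RNA of 2 FDM and 3 control eyes was analysed, with groups taken from the sample labels. Per the submitters' processing notes and the study's methods, the authors trimmed reads with Trimmomatic 0.39, quantified transcripts with Salmon 1.10.1 and worked in R 4.3.1 with DESeq2. The authors deposited estimated counts per gene as whole numbers. For the datasets it combines, the study states that estimates were summed to genes and read with tximport. The authors also deposited a signal of DESeq2-normalized counts. The second FDM library is numbered 2 in the labels and 3 in the count table and in the study's tables, and the latter sets the pairing of eyes. The pairing rests on the shared animal. Deviations from group means correlated at 0.348 (FDM 1 and Control 1) and 0.142 (FDM 3 and Control 3) over 14815 genes, and at 0.218 for the unpaired FDM 3 and Control 2. With 2 FDM libraries these deviations mirror each other, so the values are no independent check.

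Of 33636 genes, 17432 exceeded 10 counts in 2 or more libraries, a filter the study states for its combined datasets, and entered edgeR 4.0.16 (R 4.3.3; TMM, quasi-likelihood, no covariate). The threshold was the study's unadjusted p of 0.05, and adjusted p-values are Benjamini-Hochberg over all genes tested. Each standard error is the absolute log2 fold change over the root of the F statistic, and 95% intervals use the t quantile of the test's degrees of freedom. As alternatives, DESeq2 1.42.0 was run on the counts and limma 3.58.1 on the authors' values after adding 1 or 0.1 and taking log2. Other size factors, other filters, a block by mouse and the omission of single libraries were tried too. Offsets for transcript GC content were added after the data had been seen. The code was tested on simulated counts.

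Totals ran from 40599047 to 56534931 counts per library, and no libraries were duplicates (lowest chi-square per degree of freedom 11.55). Each library is 1 retina. In the fit without a block, edgeR's p-values rest on the spread between these libraries and on a prior drawn from all genes tested. This fit has 3 residual and 4.26 prior degrees of freedom and treats the eyes of one mouse as independent. Its p-values therefore do not measure the spread between independent animals. Coordinates, exon lengths and GC content are from GENCODE M21 on GRCm38, the build the notes name, in which 33586 rows were found. No exon of another annotated gene overlaps the 10 genes. The genes and lists were chosen with earlier results of these data known. Named beside the 10 are the 3 genes with the most counts per list and those passing the threshold. Some extremes and genes with groups that did not overlap were named after their values were seen (Cd34, Clec14a, Ndp, Angpt1, Pdgfb, Des, Cnn1, Nid2, Kcnj13 and Best1).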

Additional observations from a re-analysis of the deposited data

How the results depend on the processing

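Over 18 alternatives, the log2 fold changes of the 10 genes gave 180 values between -0.10 and 0.31. Of these, 158 kept direction and side of the threshold, 2 passed it (Pdgfrb without Control 1, with and without GC offsets) and 20 changed sign. The count of the 10 genes called was 0 throughout except for 1, Pdgfrb, without Control 1 (0 to 1 over the libraries left out) and 1 with GC offsets and no Control 1. With the mouse as replicate block, Cldn5 was -0.08, Pecam1 -0.02 and Vwf -0.04. The block by the numbers of the sample titles put Rgs5 at -0.05. GC offsets with the replicate block gave Cldn5 -0.04, Pecam1 -0.01 and Esam 0.01. Vwf was -0.09 with the authors' factors in edgeR and -0.10 in limma with a pseudocount of 1 or 0.1. With a library left out, the values ran from -0.07 to 0.23 for Cldn5, -0.01 to 0.17 for Pecam1, -0.09 to 0.02 for Cdh5, -0.04 to 0.21 for Kdr, -0.05 to 0.01 for Flt1, -0.03 to 0.23 for Vwf, -0.05 to 0.11 for Rgs5 and 0.04 to 0.31 for Pdgfrb, which was 0.03 with the block. The cause was not tested.

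The number of the 10 with groups that do not overlap was 1, and 0 with library totals alone or the authors' factors, 1 to 5 with a library left out and 6 with GC offsets and no Control 1. The share over all genes moved too, from 10.6% to 10.3% and 12.5%, to between 17.8% and 37.0%, and to 38.6% in these settings. With GC offsets and all libraries the count was 1 as well, beside 12.5% of all genes, but the gene was Tek in place of Esam. The adjusted levels of Tek were 8.51 and 8.14 CPM in FDM eyes and 8.13, 7.79 and 8.02 CPM in Control 1, 2 and 3. Of the 83 other vascular genes, 0 were called, against 1 with all genes of at least 1 count, 1 in DESeq2, 4 with the replicate block by mouse, 1 with the block by title numbers, 6 with GC offsets and the block, 0 to 13 with a library left out and 10 with GC offsets and no Control 1. Over all genes, the count of 281 ranged from 146 without Control 3 to 1304 with GC offsets and the block; DESeq2 gave 172, limma 500 and 493, all genes with at least 1 count 498, and the block 1261 or, by title numbers, 439. It was 170 without FDM 1, 946 without Control 1 and 535 without Control 2, and 1157 with GC offsets and no Control 1. Where 1 FDM library was left, it was assumed to vary like the controls. Each block fit has 1 residual degree of freedom. In the fit of 2 against 3 libraries without a block, each of the 10 intervals included 0.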
